A study of Mus musculus with 9 samples.

Results

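The Slc25 family holds the nuclear-encoded carriers that move metabolites across the inner mitochondrial membrane, among them ADP and ATP, phosphate, amino acids, cofactors and carnitine esters. The members were the rows of the count table whose symbol is Slc25a followed by a number, with a mean of at least 0.5 CPM (counts scaled to library size) over the 9 libraries. Of 46 rows, 39 met this limit, of 24539 genes in the table. The members nearest above the limit were Slc25a53 (1.23 CPM) and Slc25a48 (1.35 CPM), and Slc25a43 lay just below it (0.457 CPM). The other rows below the limit were Slc25a2, Slc25a18, Slc25a21, Slc25a31, Slc25a41 and Slc25a54, the last with 0 counts in all 9 libraries.

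A Slc25 protein spans the membrane through a bundle of helices and alternates between a state open to the cytosol and a state open to the matrix. In brown and beige fat the respiratory chain burns fuel for heat, and carriers of this family admit phosphate, carnitine esters and branched-chain amino acids to the matrix. The uncoupling proteins belong to the same protein family but carry other symbols.

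RNA-seq was made from inguinal white fat of C57BL/6 mice on chow diet, 1 library per mouse, with an adipose-selective Tet1 knockout driven by Fabp4-Cre (KO) and Tet1 floxed controls (WT). Mice were exposed to 4 °C for 4 h (cold) or kept at room temperature (RT), giving 2 KO and 3 WT mice in cold and 2 KO and 2 WT mice at RT. The age of these mice is not given in the sources used here, and Fabp4-Cre is also active in some tissues other than fat. The labels call the material whole inguinal fat, while the study describes fractionated adipocytes.

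The labels disagree for 2 KO mice. Mouse 1781 is cold by its column and RT by its sample title, and mouse 1786 is RT by its column and cold by its title. The groups below follow the columns, so the values of mouse 1781 come first among KO mice in cold and those of mouse 1786 first among KO mice at RT. For the called members, and for the other named members where the values were computed, results are also given by title and without these mice.

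Totals ran between 47605902 and 56292251 counts per library. Tet1 itself had 10.2 and 5.30 CPM in KO mice in cold, 5.33, 3.87 and 3.98 in WT mice in cold, 12.3 and 5.91 in KO mice at RT and 4.51 and 4.01 in WT mice at RT, and its KO minus WT log2 fold change averaged over housings was 0.96 ± 0.27 (SE, adjusted p = 0.292). The 2 highest values, 10.2 and 12.3 CPM, were those of mice 1781 and 1786, whose labels disagree. The other KO mice, at 5.30 and 5.91 CPM, lay near the highest WT value of 5.33 CPM. The study reports by qPCR that Tet1 mRNA was strongly reduced in the purified adipocyte fraction of KO inguinal fat. The counts here showed no such reduction. A count over the whole gene can take in exons outside any deleted part and cells that lack Cre, so it does not check the genotype. Why Tet1 was not lower here was not tested, and KO below means a library labelled KO. Summed over 8 adipocyte markers, levels ran between 9712 and 20809.5 CPM, the lowest in mouse 1781, and Adipoq was detected in every mouse. Sums of 6 fibroblast and progenitor markers (8751 to 13157 CPM) and of 7 macrophage markers (377 to 931 CPM) were above 0 in every library. In bulk RNA, fewer cells of a type and less RNA per cell cannot be told apart.

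Levels per length, as RPKM (TMM-scaled CPM per kilobase of gene length), differed more between members than between mice. The adenine nucleotide translocases Slc25a5 and Slc25a4, which exchange matrix ATP for cytosolic ADP, the phosphate carrier Slc25a3, the glutathione carrier Slc25a39 and the dicarboxylate carrier Slc25a10 headed the order and held a mean of 61.4% of the summed RPKM of the 39 members. Mean RPKM was at least 100 for 4 members, between 10 and 100 for 18, between 1 and 10 for 15 and under 1 for 2.

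Slc25a5 had 200.1 and 323 RPKM in KO mice in cold, 266, 303 and 275 in WT mice in cold, 242 and 237 in KO mice at RT and 263 and 250.5 in WT mice at RT. Slc25a3 had 208 and 278 RPKM in KO mice in cold, 225, 254 and 252 in WT mice in cold, 228 and 265 in KO mice at RT and 225 and 241 in WT mice at RT. The ranges of these 2 carriers overlapped, and Slc25a5 lay below Slc25a3 in 2 mice, both KO. Slc25a4 had 156 and 208 RPKM in KO mice in cold, 166, 196 and 194 in WT mice in cold, 165 and 183 in KO mice at RT and 171 and 171 in WT mice at RT, below both in every mouse. Slc25a39 had 109.9 and 148 RPKM in KO mice in cold, 111, 135 and 126 in WT mice in cold, 104 and 124 in KO mice at RT and 110.0 and 125 in WT mice at RT. Slc25a10, which exports malate and succinate in return for phosphate and is abundant in white fat, had 65.8 and 94.1 RPKM in KO mice in cold, 57.9, 106 and 87.6 in WT mice in cold, 118 and 114 in KO mice at RT and 90.4 and 93.3 in WT mice at RT. Slc25a10 was lowest in a WT mouse in cold and highest in the KO mice at RT, where its range overlapped with that of Slc25a39. The authors kept only uniquely mapped reads, and Slc25a5 has a processed pseudogene in the mouse annotation, so its level is uncertain.

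**Figure D1:**
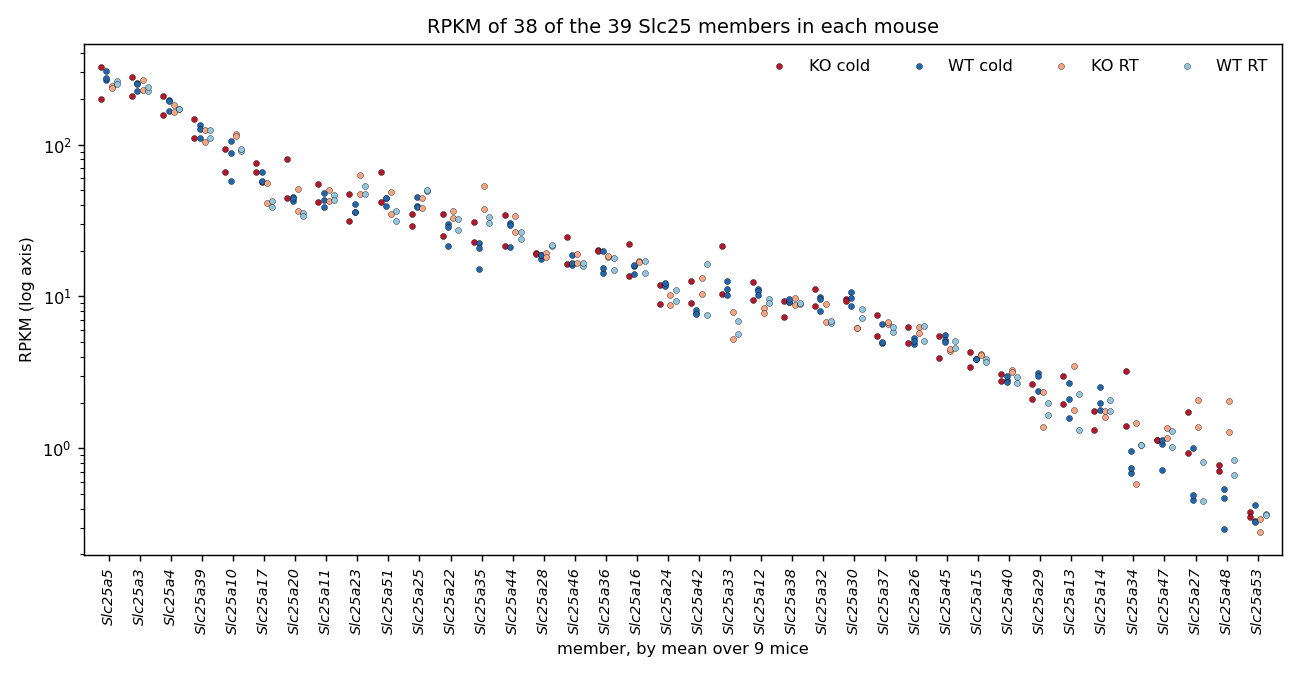
RPKM of 38 of the 39 members (log axis) in each of the 9 mice, coloured by group and ordered by the mean over mice. Slc25a5 is at the high end (200.1 to 323 RPKM) and Slc25a53 at the low end (0.283 to 0.422 RPKM), and the mice of the 4 groups lie close together for most members.

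Among carriers of nucleotides and cofactors, the peroxisomal CoA and NAD carrier Slc25a17 (38.9 to 76.2 RPKM), the NAD carrier Slc25a51 (31.2 to 65.8 RPKM) and the calcium-regulated ATP-Mg/phosphate carriers Slc25a23 (31.5 to 62.9 RPKM) and Slc25a25 (29.1 to 50.1 RPKM) followed the 5 highest. The pyrimidine nucleotide carrier Slc25a36 (14.3 to 20.1 RPKM), the CoA-related carriers Slc25a16 (13.6 to 22.2 RPKM) and Slc25a42 (7.53 to 16.4 RPKM) and the ATP-Mg/phosphate carrier Slc25a24 (8.80 to 12.3 RPKM) lay lower. The folate and FAD carrier Slc25a32 (6.65 to 11.1 RPKM), the S-adenosylmethionine carrier Slc25a26 (4.90 to 6.35 RPKM) and Slc25a47 (0.719 to 1.35 RPKM), known from liver, were lower still. Of the carboxylate carriers, the oxoglutarate/malate carrier Slc25a11 reached 38.6 to 55.1 RPKM, and Slc25a14, a relative of the uncoupling proteins, 1.32 to 2.53 RPKM.

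Amino acid carriers were led by the glutamate carrier Slc25a22 (21.5 to 36.8 RPKM) and the branched-chain amino acid carrier Slc25a44 (21.3 to 34.6 RPKM). The aspartate/glutamate carrier Slc25a12 (7.81 to 12.4 RPKM) exceeded its paralogue Slc25a13 (1.32 to 3.50 RPKM) in every mouse. The glycine carrier Slc25a38 (7.37 to 9.82 RPKM), the ornithine carrier Slc25a15 (3.41 to 4.33 RPKM) and the basic amino acid carrier Slc25a29 (1.37 to 3.12 RPKM) were low. The carnitine/acylcarnitine carrier Slc25a20, which admits fatty acids for oxidation, had 33.8 to 79.9 RPKM, against 3.92 to 5.58 RPKM for its relative Slc25a45. Of the iron carriers, mitoferrin-2 (Slc25a28, 17.6 to 22.0 RPKM) lay above mitoferrin-1 (Slc25a37, 4.92 to 7.58 RPKM), and Slc25a40 (2.67 to 3.28 RPKM) was far below its paralogue Slc25a39. The outer membrane protein Slc25a46 had 15.9 to 24.6 RPKM.

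In the quasi-likelihood test, members passed only in cold against RT averaged over both genotypes, and none in cold against RT within WT or within KO mice alone. Averaged over both genotypes, with 5 mice in cold and 4 at RT, the pyrimidine nucleotide carrier Slc25a33 rose and Slc25a35, a member with no settled substrate, fell at adjusted p under 0.05 and a fold change over 1.5. These were 2 of 39 members (5.13%), against 3.15% of the 16745 genes tested, of which 1.60% were higher and 1.55% lower. Without the fold limit there were 4 members (10.3%), 3 higher and 1 lower, against 5.86% of all genes (3.00% higher, 2.86% lower), with Slc25a17 and Slc25a30 added. At an unadjusted p under 0.05, 7 members were higher and 5 lower (30.8%), against 23.5% of all genes (12.1% higher, 11.4% lower). The median log2 fold change was 0.02 over the members and 0.00 over all genes. By role, the calls were 1 of 15 carriers of nucleotides and cofactors and 1 of 4 members with another or no settled role, and 0 of 6 carriers of phosphate and carboxylates, 0 of 7 of amino acids, 0 of 3 of the carnitine group and 0 of 4 of metals and glutathione. The carnitine group was listed as Slc25a20, Slc25a45 and Slc25a48, though Slc25a48 is described below as needed for choline uptake.

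Slc25a33 brings pyrimidine nucleotides into the matrix for the synthesis of mitochondrial RNA and DNA. Slc25a33 had 20.7 and 43.2 CPM in KO mice in cold, 25.2, 20.4 and 22.4 in WT mice in cold, 15.8 and 10.5 in KO mice at RT and 11.4 and 13.8 in WT mice at RT. Every mouse in cold lay above every mouse at RT, and the second KO mouse in cold, mouse 1782, stood far above the rest. Mouse 1782 also had the highest CPM summed over all members, at 3842, against 2790 to 3530 in the other mice. Its sum over 15 mitochondrial reference genes was the highest too, at 8246 CPM. The part of these sums in its Slc25a33 value was not tested. The cold minus RT log2 fold change of Slc25a33 was 1.06 ± 0.22 (SE, edgeR quasi-likelihood test, adjusted p = 0.0336), with 1.28 in KO mice and 0.84 in WT mice, neither of which passed alone (adjusted p = 0.136 and 0.293). Leaving out 1 mouse at a time gave log2 fold changes between 0.75 and 1.28 with adjusted p between 0.00955 and 0.0999, and the call was kept in 2 of 9 cases, without mouse 1781 and without mouse 1782. With both mice of disputed label left out the log2 fold change was 1.44 (adjusted p = 0.0129), and with the groups taken from the titles it was 0.88 (adjusted p = 0.595).

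Slc25a17 carries CoA, FAD and NAD across the peroxisomal membrane. Slc25a17 had 117 and 136 CPM in KO mice in cold, 101, 102 and 118 in WT mice in cold, 73.6 and 99.2 in KO mice at RT and 69.2 and 75.8 in WT mice at RT. The 5 mice in cold again lay above the 4 at RT, and the log2 fold change was 0.55 ± 0.11 (SE, adjusted p = 0.0275), with 0.55 in KO mice and 0.56 in WT mice. Slc25a30, a relative of the uncoupling proteins, had 17.6 and 16.9 CPM in KO mice in cold, 19.6, 15.7 and 17.7 in WT mice in cold, 11.3 and 11.3 in KO mice at RT and 15.0 and 13.2 in WT mice at RT. Both cold groups lay above both RT groups, the KO mice at RT being lowest, and the log2 fold change was 0.47 ± 0.10 (SE, adjusted p = 0.0291), with 0.61 in KO and 0.33 in WT mice. Without the mice of disputed label, the averaged values were 0.50 for Slc25a17 (adjusted p = 0.0607) and 0.45 for Slc25a30 (adjusted p = 0.123). By sample titles they were 0.25 (adjusted p = 0.872) for Slc25a17 and 0.15 (adjusted p = 0.943) for Slc25a30. Without 1 mouse at a time, adjusted p lay between 0.0212 and 0.0867 for Slc25a17 and between 0.0395 and 0.122 for Slc25a30. These 3 carriers were the 7.69% of members whose mice in cold all exceeded all mice at RT, against 5.89% of all genes, and no member had the opposite pattern, against 6.01% of all genes. By sample titles all 3 overlapped between housings, since mouse 1781 then counts as RT and mouse 1786 as cold.

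The sequences around the RefSeq start sites of these 3 genes are shown because they are the members whose mice did not overlap between housings. Each run holds 250 bases before and 50 after the start on GRCm38.p6, read 5′ to 3′ on the strand of the gene, which is the minus strand for all 3. The windows are chr15:81360716-81361015 for Slc25a17, chr4:149774218-149774517 for Slc25a33 and chr14:75786988-75787287 for Slc25a30, and their GC contents are 60.7%, 66% and 66.7%, against a median of 52.7% over all promoters. Capitals mark an ETS-type CCGGAAG in Slc25a17 and an E-box CACGTG in Slc25a33.
Slc25a17: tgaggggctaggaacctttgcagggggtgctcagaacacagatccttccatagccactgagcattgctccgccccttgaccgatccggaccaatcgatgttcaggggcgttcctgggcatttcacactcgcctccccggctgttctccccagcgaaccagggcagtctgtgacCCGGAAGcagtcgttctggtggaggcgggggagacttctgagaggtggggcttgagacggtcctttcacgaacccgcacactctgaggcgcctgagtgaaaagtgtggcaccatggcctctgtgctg
Slc25a33: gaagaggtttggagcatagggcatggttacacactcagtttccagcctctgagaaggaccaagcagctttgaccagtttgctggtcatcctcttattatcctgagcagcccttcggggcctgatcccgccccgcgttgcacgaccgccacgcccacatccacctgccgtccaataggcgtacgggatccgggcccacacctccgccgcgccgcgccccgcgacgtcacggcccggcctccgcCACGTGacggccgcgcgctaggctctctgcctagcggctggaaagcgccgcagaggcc
Slc25a30: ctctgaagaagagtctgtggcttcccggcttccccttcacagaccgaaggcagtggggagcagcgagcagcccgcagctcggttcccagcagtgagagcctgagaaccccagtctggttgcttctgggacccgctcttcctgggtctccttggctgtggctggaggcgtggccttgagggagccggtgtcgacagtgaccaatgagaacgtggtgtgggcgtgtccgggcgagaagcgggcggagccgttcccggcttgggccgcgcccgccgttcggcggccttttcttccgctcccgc
The ETS-type letters in Slc25a17 begin 77 bases before the start, and the E-box in Slc25a33 begins 8 bases before it. Of 6 motifs searched on both strands, none was in the Slc25a30 window. The 30 members with an entry have 39 promoters in the table, of which 6 held CCGGAAG, against 8.86% of 32851 promoters, and 6 held CACGTG, against 7.15%. TGACGTCA, the cAMP response element, was found in Slc25a25 and Slc25a36, against 1.79% of promoters. TCAAGGTCA, TTATGTAA and the palindromic site of nuclear respiratory factor were in no member promoter and in 0.423%, 0.938% and 0.971% of all promoters. A match of letters is a description of the window and not a bound site.

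Slc25a35 had 44.7 and 60.5 CPM in KO mice in cold, 29.4, 43.9 and 40.6 in WT mice in cold, 73.0 and 104 in KO mice at RT and 65.5 and 59.4 in WT mice at RT. Within each genotype the mice in cold lay below those at RT, but the second KO mouse in cold (60.5 CPM) stood above the lower WT mouse at RT (59.4 CPM). The cold minus RT log2 fold change was -0.73 ± 0.16 (SE, adjusted p = 0.0372), with -0.75 in KO mice and -0.72 in WT mice. Leaving out 1 mouse at a time gave adjusted p between 0.0440 and 0.102, and the call was kept only without mouse 1782. Without both mice of disputed label the value was -0.75 (adjusted p = 0.0681), and by titles -0.44 (adjusted p = 0.816). On GRCm38, Slc25a35 (chromosome 11, 68968131 to 68974365, plus strand) shares 1151 exon bases, 31.3% of its own, with Rangrf on the opposite strand. No source used here gives the strand setting of the counting, and reads of both genes cannot be told apart in the shared part. Rangrf had a cold minus RT log2 fold change of 0.07 (adjusted p = 0.747). Slc25a33 (chromosome 4, 149744036 to 149774277, minus strand) shares 281 exon bases, 14.9%, with the antisense gene Gm13068, which was too low to be tested.

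**Figure D2:**
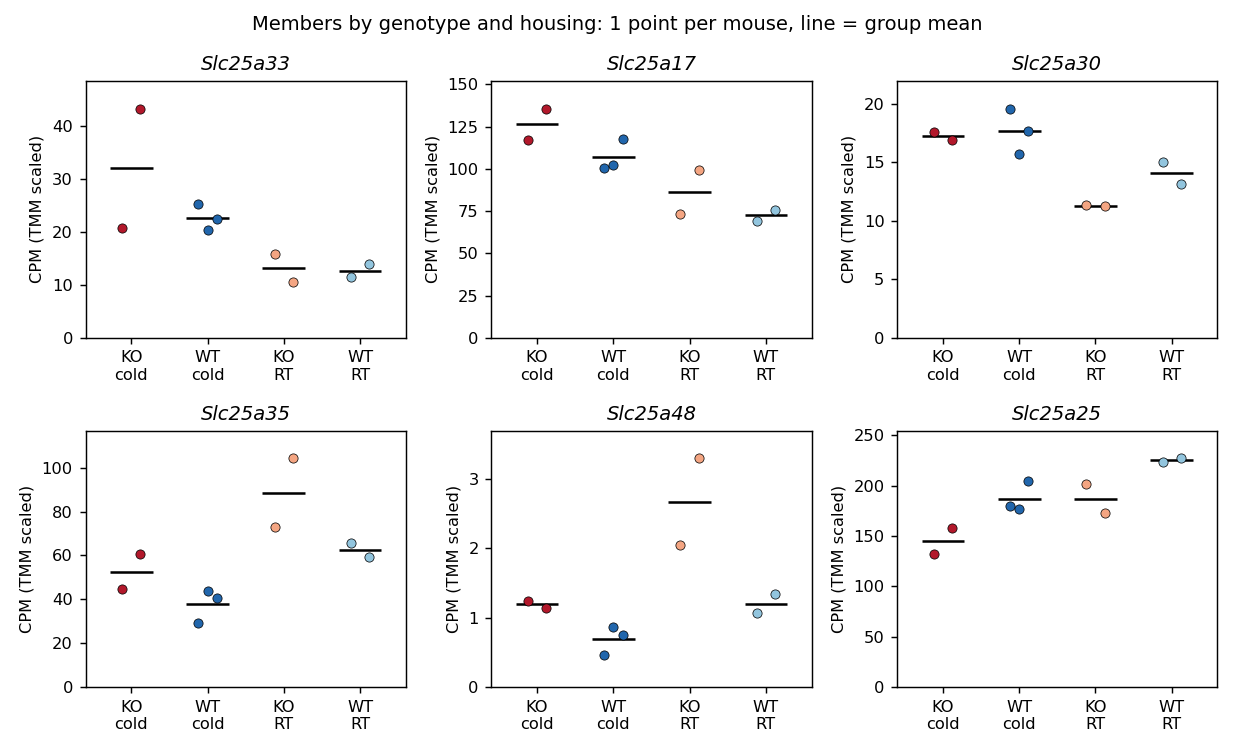
CPM, scaled by TMM factors, of 6 members in each mouse (points) with the group mean (lines), by genotype and housing. Mice in cold lie above mice at RT for Slc25a33, Slc25a17 and Slc25a30, while Slc25a35, Slc25a48 and Slc25a25 have lower group means in cold within each genotype.

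Other members named for a low unadjusted p in at least 1 of the comparisons did not pass the quasi-likelihood test. Slc25a12, which takes part in the malate-aspartate shuttle, had 38.7 and 29.4 CPM in KO mice in cold, 35.2, 33.8 and 31.9 in WT mice in cold, 26.4 and 24.4 in KO mice at RT and 30.0 and 28.3 in WT mice at RT, with a log2 fold change in cold of 0.32 ± 0.09 (SE, adjusted p = 0.0904), 0.24 without the mice of disputed label (adjusted p = 0.230) and 0.015 by titles (adjusted p = 0.992). Mice in cold exceeded mice at RT but for the lower KO value in cold, which lay below the higher WT value at RT. Slc25a32 had 27.3 and 35.0 CPM in KO mice in cold, 31.3, 25.3 and 30.1 in WT mice in cold, 21.2 and 28.1 in KO mice at RT and 20.9 and 21.7 in WT mice at RT, with 0.39 ± 0.12 (SE, adjusted p = 0.1). The WT mice did not overlap between housings, whereas the lower KO value in cold fell below the higher KO value at RT. Slc25a28 had 31.7 and 31.4 CPM in KO mice in cold, 28.9, 30.5 and 30.7 in WT mice in cold, 31.6 and 29.9 in KO mice at RT and 35.2 and 36.1 in WT mice at RT. The WT mice in cold lay below those at RT (-0.25, adjusted p = 0.274), and KO values ran between 29.9 and 31.7 CPM in both housings.

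On the lower side, Slc25a48, a carrier needed for choline uptake by mitochondria, had 1.25 and 1.14 CPM in KO mice in cold, 0.471, 0.861 and 0.754 in WT mice in cold, 2.04 and 3.29 in KO mice at RT and 1.07 and 1.34 in WT mice at RT. The KO mice at RT were highest and the WT mice in cold lowest, and the cold minus RT log2 fold change was -0.97 ± 0.26 (SE, adjusted p = 0.0636), -1.16 without the mice of disputed label (adjusted p = 0.118) and -0.65 by titles (adjusted p = 0.828). At about 1 CPM its values rest on 26 to 167 reads per library. Slc25a25, which loads ATP into mitochondria under calcium control, had 132 and 158 CPM in KO mice in cold, 179.7, 177 and 205 in WT mice in cold, 201 and 173 in KO mice at RT and 224 and 227 in WT mice at RT. Its value in cold relative to RT was -0.32 ± 0.09 (SE, adjusted p = 0.0855), -0.20 without those mice (adjusted p = 0.353) and -0.015 by titles (adjusted p = 0.991). Both genotypes had lower means in cold for each of these carriers, and neither passed the quasi-likelihood test. DESeq2 and the likelihood ratio test each called 3 members in this comparison, Slc25a33, Slc25a35 and Slc25a48, and Slc25a25 was under an adjusted p of 0.05 with DESeq2, without the fold limit.

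Within WT mice alone, 0 of 39 members were called in cold against RT, against 0.370% of all genes, and 7 members (17.9%) had an unadjusted p under 0.05, against 13.2% of all genes. Within KO mice alone, 0 members were called, against 0.334% of all genes, and 10 (25.6%) had an unadjusted p under 0.05, against 15.6%. DESeq2 and edgeR's likelihood ratio test also called 0 members in WT mice, and each called 2 in KO mice, Slc25a30 and Slc25a33. Beige markers did not all move alike in cold. Averaged over genotypes, 6 of 8 were positive and 2 negative, the lowest at -0.53. Of the 8, 4 were called higher, among them Dio2 (2.83, adjusted p = 0.00451) and Ucp1 (2.92, adjusted p = 0.0136), and 0 lower. Otop1 had lower means in cold in both genotypes, at 21.9 against 32.6 CPM in KO and 5.48 against 7.66 CPM in WT mice. The sum of the 8 markers was 1634 to 2359 CPM in KO mice in cold, 371 to 521 in WT mice in cold, 506 to 1035 in KO mice at RT and 97.1 to 116 in WT mice at RT. None of the 8 was at 0 in all mice, and their part in the results on members was not tested.

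Among genes of the same transport system, the carriers under other symbols were called higher in cold in 2 of 5 cases, Ucp1 and Ucp2 (1.13, adjusted p = 0.00583), while Ucp3, Mtch1 and Mtch2 did not pass. Of the 9 genes that import carriers into the inner membrane, 0 passed in cold in either direction (8 positive, 1 negative), Tomm70a having the smallest adjusted p (0.35, adjusted p = 0.0822). Of 19 other mitochondrial transport genes, 1 was called, Sfxn5, lower (-0.86, adjusted p = 0.0326). Of 15 genes kept as a mitochondrial reference, 0 were called, with a median of 0.00. Tomm20, an import receptor of the outer membrane that stands in this list, alone passed without the fold limit (0.37, adjusted p = 0.0281).

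KO against WT compared mice by the genotype of their labels, which the Tet1 counts do not check. No member was called at RT (0 of 39, against 0.0358% of all genes), in cold (0 of 39, against 0.0776%) or averaged over both housings (0 of 39, against 0.125%). The study itself lists Slc25a34 as higher in KO mice in cold, as given below. At an unadjusted p under 0.05 there were 2 members at RT (5.13%, against 7.40% of all genes), 3 in cold (7.69%, against 6.09%) and 7 in the average (17.9%, against 11.6%), of which 6 were higher and 1 lower in KO mice, against 5.14% and 6.48% of all genes. DESeq2 called 0 members at RT and in cold and 1 in the average, Slc25a27. The likelihood ratio test called 0, 0 and 2, Slc25a27 and Slc25a48. At RT, in cold and in the average, which is the mean of the other 2, 27 of 39 log2 fold changes of members were positive. Of all 16745 genes, 8222, 8629 and 8371 were positive. The median of the members in the average was 0.14, against 0.00 over all genes. The 15 genes of the mitochondrial reference had a median of 0.25 there, 14 of 15 being positive, with 0 called.

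Slc25a48 was higher in both KO mice than in all WT mice of the same housing. Its KO minus WT log2 fold change was 1.15 at RT, 0.78 in cold and 0.96 ± 0.26 in the average (SE, adjusted p = 0.281). Slc25a27, a relative of the uncoupling proteins best known from neurons, had 4.95 and 2.67 CPM in KO mice in cold, 2.90, 1.31 and 1.42 in WT mice in cold, 5.96 and 3.98 in KO mice at RT and 1.29 and 2.34 in WT mice at RT. KO and WT overlapped in cold (2.67 CPM in a KO mouse, 2.90 CPM in a WT mouse) but not at RT, and the averaged log2 fold change was 1.23 ± 0.33 (SE, adjusted p = 0.281). Without both mice of disputed label these averages were 1.08 for Slc25a48 (adjusted p = 0.265) and 0.82 for Slc25a27 (adjusted p = 0.495), and by titles 1.05 for Slc25a48 (adjusted p = 0.410) and 1.25 for Slc25a27 (adjusted p = 0.302).

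Slc25a34, the paralogue of Slc25a35, had 3.99 and 9.29 CPM in KO mice in cold, 2.74, 1.96 and 2.14 in WT mice in cold, 4.20 and 1.66 in KO mice at RT and 3.03 and 3.03 in WT mice at RT. The second KO mouse in cold had more than any other mouse. KO mice exceeded WT mice in cold (1.54 ± 0.44 on the log2 scale, SE, adjusted p = 0.636), whereas at RT the KO mice lay on either side of the WT mice. The study, which also used edgeR, lists Slc25a34 among the genes higher in KO adipocytes in cold, at the same fold and adjusted p limits. It does not name the edgeR test, and why the results differ was not tested. Here the KO minus WT value in cold was 1.56 by titles (adjusted p = 0.323). Without the mice of disputed label the value was 2.02, which rests on 1 KO mouse in cold, the one at 9.29 CPM. Slc25a34 was the only member with an unadjusted p under 0.05 for the KO effect in cold minus that at RT (1.59 ± 0.66, SE, unadjusted p = 0.0408, adjusted p = 0.999927). At that p there were 2.74% of all genes, and the difference was called for 0 members and 0 of all genes. Of 8 skeletal muscle markers, 6 had an unadjusted p under 0.05 in KO against WT in cold, all higher and none called, while Acta1 and Myh4 had negative values. The summed level of the 8 was 31.4 to 73.6 CPM in KO mice in cold, 45.9 to 79.3 in WT mice in cold, 28.8 to 39.1 in KO mice at RT and 21.9 to 35.6 in WT mice at RT, and their part in the values of Slc25a34 was not tested.

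**Figure D3:**
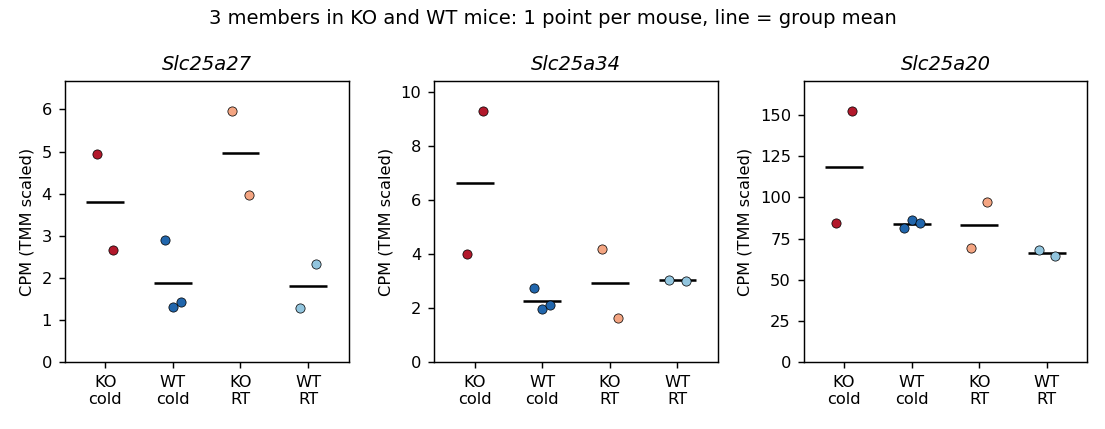
CPM, scaled by TMM factors, of Slc25a27, Slc25a34 and Slc25a20 in each mouse (points) with group means (lines). KO means lie above WT means in both housings except for Slc25a34 at RT, and for each gene KO and WT points overlap in 1 of the 2 housings.

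Slc25a35 was higher in KO mice within both housings without overlap, at 0.49 ± 0.16 (SE, adjusted p = 0.343), 0.71 without the mice of disputed label (adjusted p = 0.176) and 0.53 by titles (adjusted p = 0.534). Slc25a20 had 84.4 and 152 CPM in KO mice in cold, 81.6, 86.1 and 84.8 in WT mice in cold, 69.1 and 97.5 in KO mice at RT and 67.9 and 64.4 in WT mice at RT. Its average was 0.41 ± 0.17 (SE, adjusted p = 0.418). Leaving out the 2 mice of disputed label keeps 1 KO mouse per housing, at 152 CPM in cold and 97.5 CPM at RT. The call of Slc25a20 in that fit rests on these single mice. On the lower side, Slc25a25 was below WT in every KO mouse of either housing, with log2 fold changes of -0.27 at RT, -0.37 in cold and -0.32 ± 0.09 in the average (SE, adjusted p = 0.300). By titles the value in cold was -0.059 (adjusted p = 0.921) and the average -0.31 (adjusted p = 0.475), and without those mice they were -0.25 (adjusted p = 0.722) and -0.31 (adjusted p = 0.345). Slc25a25 shares 379 exon bases (4.82%) with Naif1 on the opposite strand, which had a log2 fold change of 0.04 in the same comparison (adjusted p = 0.915). The members with KO above WT in both housings were Slc25a35 and Slc25a48 (5.13%, against 3.67% of all genes), and those with KO below WT were Slc25a14 and Slc25a25 (5.13%, against 4.41%). By titles Slc25a35 and Slc25a48 overlapped at RT and Slc25a25 in cold. Slc25a14 stayed below WT in both housings by titles, at RT by a narrow margin (3.51 CPM in a KO mouse, 3.52 CPM in a WT mouse).

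The KO minus WT values of the most abundant carriers were small against their errors: -0.10 ± 0.14 for Slc25a5, 0.00 ± 0.11 for Slc25a4, 0.04 ± 0.11 for Slc25a3, 0.01 ± 0.12 for Slc25a39 and 0.14 ± 0.18 for Slc25a10 (log2, SE). In cold against RT the same carriers had 0.13 ± 0.14, 0.09 ± 0.11, 0.02 ± 0.11, 0.13 ± 0.12 and -0.34 ± 0.18, and none passed. Beige markers separated the genotypes: 3 of 8 were called higher in the average, Cox7a1 (2.23, adjusted p = 0.00119), Cidea (2.31, adjusted p = 0.0049) and Ucp1 (4.25, adjusted p = 0.0128), with the sums given above. All 7 macrophage markers had negative values in the average with 0 called, as did all 8 adipocyte markers. In cold alone, 5 of 7 macrophage and 8 of 8 adipocyte markers were negative, and at RT 7 of 7 and 2 of 8. The macrophage sum was 478 to 828 CPM in KO mice in cold, 590.3 to 762 in WT mice in cold, 377 to 542 in KO mice at RT and 666 to 931 in WT mice at RT. The part of these lists in the values of the members was not tested. Of the other carrier lists, 0 of 9 import genes and 0 of 19 other transport genes were called.

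**Figure D4:**
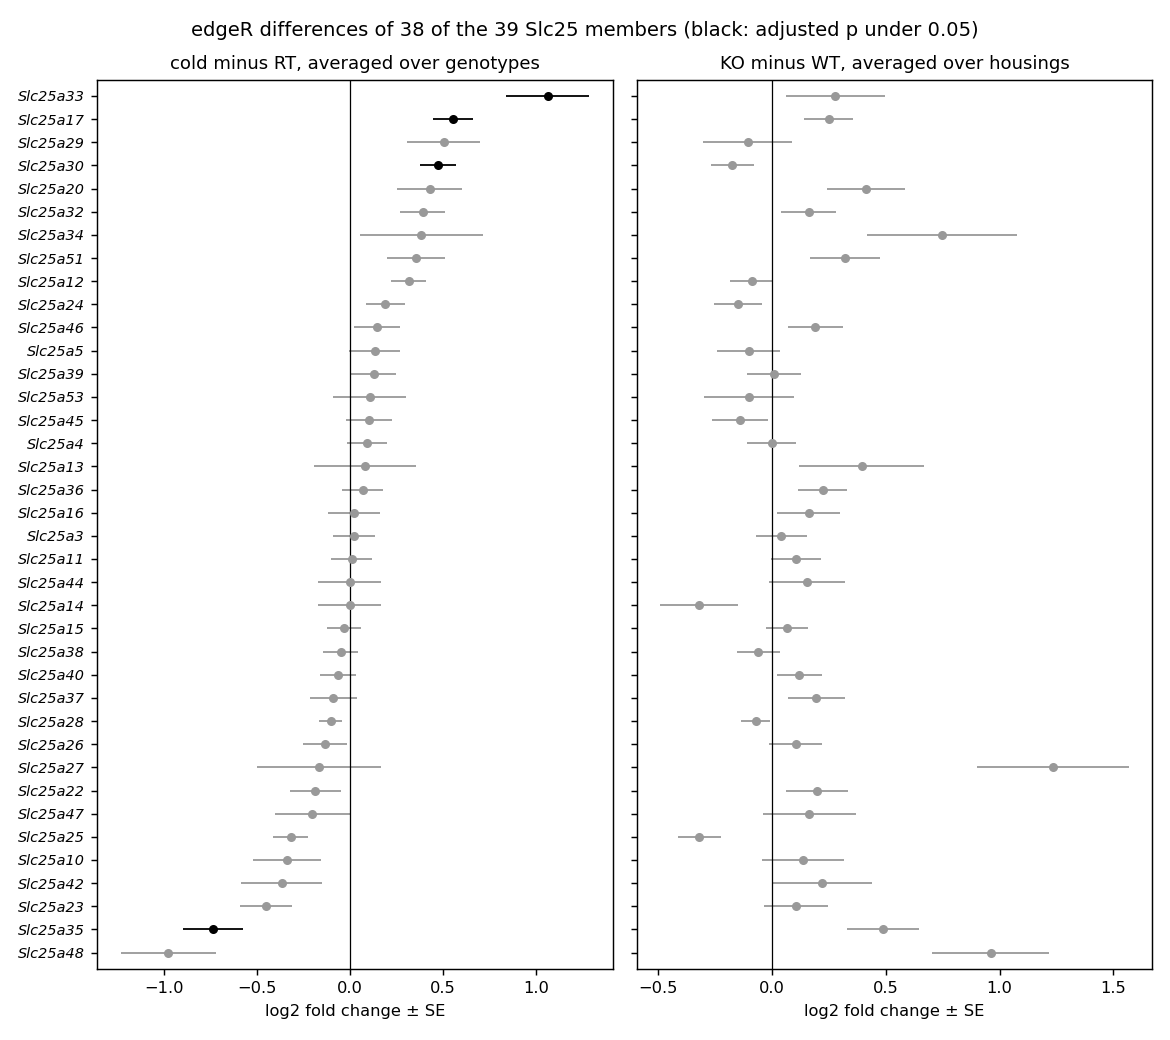
Log2 fold change ± SE of 38 of the 39 members from the edgeR fit, cold minus RT averaged over genotypes on the left and KO minus WT averaged over housings on the right, with members in the order of the left panel. Black points passed at adjusted p under 0.05: Slc25a33, Slc25a17, Slc25a30 and Slc25a35 on the left and none on the right.

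Paralogues were also set against each other, as shares of their summed RPKM. Slc25a36, the paralogue of Slc25a33, had 65.8 and 65.0 CPM in KO mice in cold, 65.4, 46.9 and 50.0 in WT mice in cold, 59.7 and 60.6 in KO mice at RT and 48.8 and 58.2 in WT mice at RT, with a log2 fold change in cold of 0.07 ± 0.11 (SE, adjusted p = 0.762). Its groups overlapped. Slc25a33 made up 33.9 and 52.1% in KO mice in cold, 38.6, 41.5 and 42.2 in WT mice in cold, 30.1 and 22.1 in KO mice at RT and 27.6 and 28.0 in WT mice at RT of the pair, and no mouse at RT reached the lowest share in cold. By titles the housings overlapped, with mouse 1781 (33.9%) at RT and mouse 1786 (30.1%) in cold. Slc25a34 was the minor partner of Slc25a35, at 5.73 and 9.46% in KO mice in cold, 5.96, 2.95 and 3.46 in WT mice in cold, 3.77 and 1.07 in KO mice at RT and 3.06 and 3.36 in WT mice at RT of that pair. Slc25a4 held 38.4 to 43.8% of the ADP/ATP carriers in all 9 mice. Slc25a12 held 70.7 to 87.3% of the aspartate/glutamate carriers, and Slc25a28 71.8 to 79.1% of the mitoferrins. Within the ATP-Mg/phosphate carriers Slc25a25 held 40.1 and 38.2% in KO mice in cold, 45.3, 42.6 and 48.4 in WT mice in cold, 38.2 and 39.8 in KO mice at RT and 43.5 and 46.9 in WT mice at RT, lower in both KO mice than in all WT mice within each housing.

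**Figure D5:**
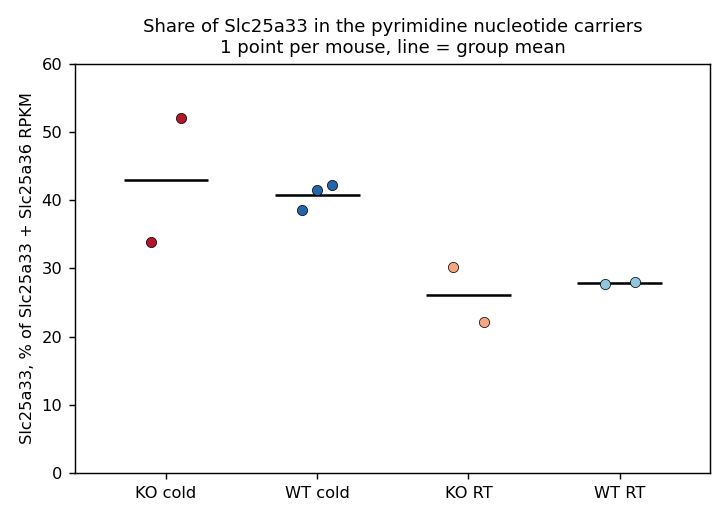
RPKM of Slc25a33 as a percentage of Slc25a33 plus Slc25a36 in each mouse (points) with group means (lines). The 5 mice in cold lie between 33.9 and 52.1%, above the 4 mice at RT, which lie between 22.1 and 30.1%.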

How the data were processed

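The authors aligned reads with STAR to mm10, kept uniquely mapped reads and removed mitochondrial ones, and counted them with featureCounts. No source used here names versions, annotation or strand. Per the file headers, the deposited counts are raw and whole, 1 column per mouse, and the deposited RPKM values are scaled to gene length and library size. The counts were tested with edgeR 4.0.16 (R 4.3.3): filterByExpr, TMM, robust quasi-likelihood fit, 4 groups, all 9 libraries, Benjamini-Hochberg over 16745 genes. A call needs adjusted p under 0.05 and a fold change over 1.5 (for the KO effect in cold minus that at RT, adjusted p alone). SE is the absolute log2 fold change over the root of F. Levels of 1 gene between mice are TMM-scaled CPM, and between genes the same CPM per kilobase, with each gene's length taken from the deposited RPKM of the 7 mice whose columns match their titles. This replaced the planned direct use of the deposited RPKM, of which 2 columns were not used, and gave 0.946 to 1.03 times the authors' values. Per-mouse values are given for members called in any comparison, up to 4 per direction of lowest unadjusted p, the 5 highest by RPKM and paralogues of called members. Members and lists were chosen with earlier results of these data known. Alternatives included DESeq2 1.42.0 and a likelihood ratio test. Scripts were tested on simulated data. Correlated genes are not given, since the mice fall into 2 housings. 1 row of the family was left out, and values of 1 of the 39 members are not reported here. Mice are separate animals. The p-values come from 1 fit in which the 4 groups, of 2 or 3 mice each, share 1 estimate of the spread. Promoter sequences and motif searches used RefSeq on GRCm38.p6, and positions GENCODE on GRCm38.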

Additional observations from a re-analysis of the deposited data

How the results depend on the processing

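No paired analysis was possible because the groups compared share no mouse numbers. Of the named members' log2 fold changes under the alternatives, 465 kept their direction and side of the threshold, 18 were no longer past it, 11 passed it and 4 reversed. All 4 reversals were in cold against RT in KO mice with the mice of disputed label grouped by title: -0.033 for Slc25a30, -0.048 for Slc25a17, -0.18 for Slc25a12 and 0.24 for Slc25a25. That grouping moves mouse 1781 to RT and mouse 1786 to cold, 1 of the 2 KO mice of each housing. Which label is right was not tested. Members called in cold against RT averaged over genotypes were 2, but 0 by titles, 1 (Slc25a33) without both mice, and 3 (Slc25a33, Slc25a35 and Slc25a48) with DESeq2 and with the likelihood ratio test. Leaving out 1 mouse gave 0 to 3, with 3 without mouse 1781 (Slc25a17, Slc25a20 and Slc25a33), 3 without 1782 (Slc25a23, Slc25a33 and Slc25a35), 1 without 1814 (Slc25a17) and 0 without each of the other 6 mice. Cold against RT in KO mice had 0 members, 2 with DESeq2 and 2 with the likelihood ratio test. KO against WT averaged over housings had 0 members, 1 with DESeq2, 2 with the likelihood ratio test and 1 (Slc25a20) without both mice. Leaving both out leaves 1 KO mouse per housing, assumed to vary like the other groups. For KO against WT at RT, 6 of all genes were called, 126 with DESeq2, 109 with the likelihood ratio test, 6 by titles, 6 without both mice and 0 to 6 without 1 mouse. For KO against WT in cold, 13 of all genes were called, 100 with DESeq2, 104 with the likelihood ratio test, 24 by titles, 27 without both mice and 7 to 18 without 1 mouse. For cold against RT in WT mice, 62 of all genes were called, 483 with DESeq2, 451 with the likelihood ratio test, 0 by titles, 113 without both mice and 2 to 77 without 1 mouse. For cold against RT in KO mice, 56 of all genes were called, 594 with DESeq2, 524 with the likelihood ratio test, 0 by titles, 0 without both mice and 3 to 31 without 1 mouse. For KO against WT averaged, 21 of all genes were called, 230 with DESeq2, 244 with the likelihood ratio test, 41 by titles, 51 without both mice and 14 to 27 without 1 mouse. For cold against RT averaged, 527 of all genes were called, 904 with DESeq2, 939 with the likelihood ratio test, 1 by titles, 295 without both mice and 133 to 511 without 1 mouse. The KO effect in cold minus that at RT was called for 0 genes, 3 with DESeq2 and 4 with the likelihood ratio test. With only the groups compared in the fit, cold against RT in WT mice gave 104 genes. With only the groups compared in the fit, cold against RT in KO mice gave 0 genes. Upper-quartile scaling gave 28 genes for cold against RT in KO mice. KO against WT at RT gave 0 with only its groups in the fit.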
